A study of Equus caballus with 25 samples.

Results

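Kallikreins and serine protease inhibitors were followed through the oestrous cycle in the endometrium, the lining of the uterus, of 5 cycling Bavarian Warmblood mares. Their 4 genes are KLK1 and KLK1E2, which encode tissue kallikreins, and SPI2 and SERPINF1, which encode members of the serpin family. The members are all probes whose RefSeq transcript accession belongs to horse KLK1 (NM_001081892), KLK1E2 (NM_001081893), SPI2 (NM_001114533) or SERPINF1 (NM_001143954). These are 5 probes of 43603 on the array, 1 each for KLK1, KLK1E2 and SERPINF1 and 2 for SPI2, called probe A (A_69_P000956) and probe B (A_69_P023398) here. All 5 were bright enough to be tested, with 35770 probes in all. The genes were picked for their levels over the same 5 days that are described here. Those levels and the differences between days are therefore given as a description, without p-values.

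Messenger RNA was measured on 25 one-colour Agilent arrays, 1 for each of the 5 mares at days 0, 3, 8, 12 and 16, where day 0 is the day of ovulation. The labels place day 0 in the ovulatory phase, days 3, 8 and 12 in the early, mid and late luteal phase, and day 16 at the start of the next ovulatory phase. The labels name no treatment and no age. All groups are the same mares, described as cycling normally, whose biopsies were taken through the cervix in different cycles, some of them as pairs within a cycle. A biopsy holds all cell types of the tissue in unknown proportions, and the day was counted from ovulation in each mare.

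Tissue kallikreins are serine proteases that release kinins, small peptides that widen blood vessels and raise their permeability, and they also cleave other secreted proteins. Serpins are mostly suicide inhibitors of serine proteases: the protease cuts a loop of the serpin and is trapped on it. SPI2 encodes a horse form of alpha-1-antiproteinase (alpha-1-antitrypsin), the class that blocks elastase of neutrophils. SERPINF1 encodes pigment epithelium-derived factor, a serpin that inhibits no protease and is known for restraining the growth of blood vessels. In the uterus such enzymes and inhibitors belong to the secretions of the glands and to the turnover of the tissue between cycles.

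Levels are log2 values relative to the 75th percentile of the same array, so that 0 is the signal of that percentile. The 75th percentile ranged from 698 to 3701 over the 25 arrays, and the share of spots well above background from 70.3% to 88.1%. Its median was 895 on day 0 and 1720, 1559, 1868 and 2001 on days 3, 8, 12 and 16, so that day 0 had the lowest median. Markers of the tissue were present: P19 (uterocalin, a lipocalin of the equine uterine glands), ESR1 (oestrogen receptor alpha) and ESRP1, a splicing factor of epithelium, were well above background on all 25 arrays. Arrays on 7 slides were scanned on 4 days, and differences within a slide are given beside the pooled ones. They take all arrays of the 2 days on that slide, so some of them set different mares against each other. The 5 arrays of day 0 lay on slides 4, 5, 6 and 7 and were scanned on scan days 3 and 4. None of them lay on slides 1, 2 and 3, which held arrays of the other days. Differences from day 0 are therefore partly mixed with slide and scan day. In such bulk samples fewer cells of a type and less RNA per cell cannot be told apart. With 5 arrays for each day, precision is limited throughout.

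SPI2 had by far the widest range over the cycle of the 4 genes. Its transcript was high at ovulation and at day 16 and low at days 8 and 12. At day 0 probe A stood at −0.89, −0.80, −0.89, −1.07 and −0.44 in mares 1 to 5. The mares lay close together there, with a mean of −0.82 ± 0.23 (SD, n = 5). On day 3 they had parted: mare 1 was at −1.43 and mare 5 at 0.27, while mares 2, 3 and 4 were at −4.47, −4.70 and −3.35. The early luteal mean was −2.74 ± 2.12 (SD, n = 5), and no mare lay within 0.5 of it. The day 3 arrays of mares 1 and 5 also stood apart in some markers of cell types. LUM of stromal fibroblasts was at 0.34 and 0.12 in them and at 1.77, 1.99 and 1.62 in mares 2, 3 and 4, and DCN at 3.09 and 2.92 against 4.44, 4.38 and 4.35. TAGLN of smooth muscle was at −1.23 and −1.96 against −2.90, −2.52 and −2.90. HBA2 of red blood cells was at −1.39 and −1.95 against −2.56, −3.15 and −2.29, and PECAM1 of endothelium at 0.09 and 0.06 against 0.27, 0.31 and 0.93. Other markers overlapped between these mares: ESRP1 of epithelium was at 2.76 and 2.99 against 2.81, 2.90 and 3.40. CD14 of leukocytes was at −0.11 and 0.26 against 0.42, 0.50 and 0.07. CD68 of leukocytes and DYDC1 of ciliated cells overlapped as well. The part of the marker differences in the SPI2 levels was not tested.

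By day 8 probe A was at −6.30, −5.46, −1.13, −6.40 and −3.86 in mares 1 to 5, a mean of −4.63 ± 2.20. Mare 3 stood above the other four, almost at its level of ovulation (−0.89). At day 12 the mares were close again, at −3.91, −5.08, −3.76, −4.39 and −5.08, with a mean of −4.44 ± 0.62. Day 16 gave −1.18, 0.39, 0.56, 0.14 and −1.36, with a mean of −0.29 ± 0.91. The ranges of days 12 and 16 did not overlap, nor did those of days 0 and 12 or of days 0 and 8. For days 0 and 8 the gap was narrow, from −1.07 in mare 4 at day 0 to −1.13 in mare 3 at day 8. Before scaling the ranges of these days overlapped.

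**Figure D1:**
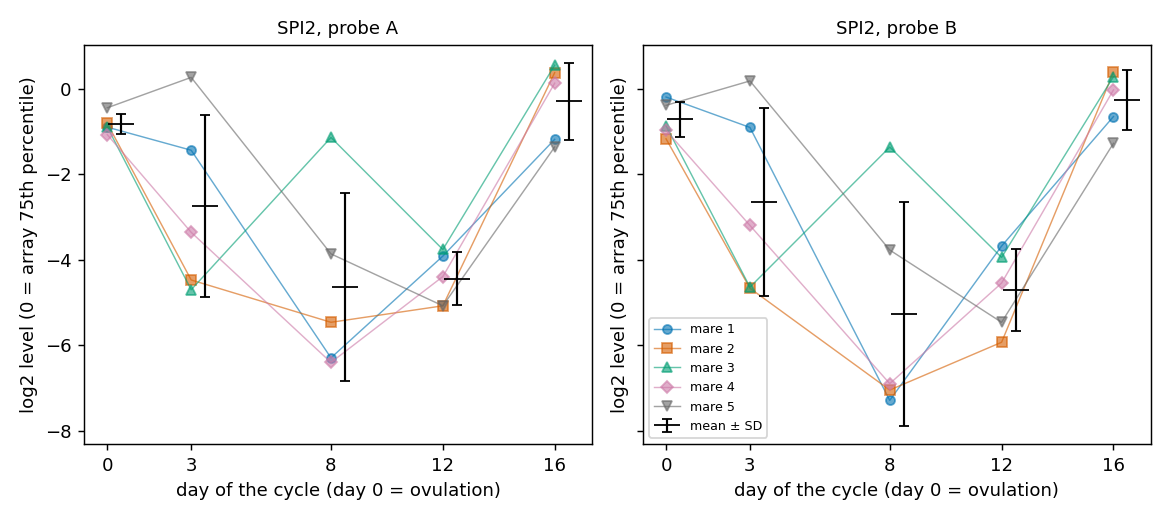
Level of SPI2 by day of the cycle for probe A (left) and probe B (right), as log2 relative to the 75th percentile of the array. Coloured points joined by lines are the 5 mares and black bars the mean ± SD. Both probes are high at days 0 and 16 and low at days 8 and 12, with mares 1 and 5 high at day 3 and mare 3 high at day 8.

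Probe A was higher at day 16 than at day 12 by 4.15 ± 0.86 (log2, moderated standard error), a 17.8-fold difference, in 5 of 5 mares. On the 3 slides with arrays of these days it was 2.74, 4.32 and 4.53. At day 8 it was lower than at day 0 by −3.81 ± 0.86 (14.1-fold) in 5 of 5 mares, with −3.42 and −5.51 inside the 2 slides shared by these days. The size of this difference is uncertain, since the day 8 signals of mares 1, 2 and 4 were dim (20.5, 30.3 and 18.4). Before scaling between arrays that difference was −3.28, with 1 of 5 mares higher at day 8, and the one between days 16 and 12 was 4.32. Day 12 was lower than day 0 by −3.63 ± 0.86 (12.3-fold), again in 5 of 5 mares. From ovulation to day 3 the difference was −1.92 ± 0.86 in 4 of 5 mares. It was −1.89 ± 0.86 in 4 of 5 mares from day 3 to day 8, where single mares ran from −4.86 to 3.57. The fit gives a probe the same standard error in all these comparisons. The SD between mares, however, was 0.23 at day 0 and 2.12 and 2.20 at days 3 and 8. For comparisons with days 3 and 8 the standard error can therefore overstate the precision.

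Probe B of SPI2 reads the same transcript on the same arrays. Its level was −0.19, −1.16, −0.86, −0.97 and −0.38 at day 0. It was −0.90, −4.66, −4.64, −3.19 and 0.19 at day 3. At day 8 probe B was at −7.29, −7.05, −1.36, −6.90 and −3.77. The day 8 values of mares 1 and 2 were not well above background, so that 3 of 5 arrays measured it on that day. On day 12 it was at −3.68, −5.93, −3.94, −4.54 and −5.46, and on day 16 at −0.64, 0.40, 0.29, −0.02 and −1.27. The same mares were high at days 3 and 8 as for probe A.

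Over the 25 arrays the probes differed by a median of 0.19 and had a Pearson r of 0.99. Their largest difference, 1.59, fell on the day 8 array of mare 2, where the gene was near background. For probe B the difference of day 16 against day 12 was 4.46 ± 0.97 (22.0-fold), and that of day 8 against day 0 was −4.56 ± 0.97. Between days 16 and 8 it was 5.02 ± 0.97, where probe A, measured on all arrays, gave 4.34 ± 0.86. Both values of probe B rest in part on the 2 day 8 arrays that were not well above background, so their size is uncertain and no fold is given.

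Every mare passed through a wide range of SPI2, but not on the same days. For probe A the highest and lowest day of a mare were 42.3-fold apart in mare 1, 57.6-fold in mare 2 and 38.3-fold in mare 3. They were 93.2-fold apart in mare 4 and 40.8-fold in mare 5. In mares 1, 2 and 4 the folds rest on dim day 8 signals of 20.5, 30.3 and 18.4, so their size is uncertain. The lowest level fell on day 8 in mares 1, 2 and 4, on day 3 in mare 3 and on day 12 in mare 5. The highest fell on day 16 in mares 2, 3 and 4, on day 0 in mare 1 and on day 3 in mare 5. In order of the day means, day 16 was followed by days 0, 3, 12 and 8, and the values of each day overlapped with those of the next in this order. Each such step was smaller than the pooled SD of its days between days 16 and 0 and between days 12 and 8.

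SPI2 spread widely between mares at days 3 and 8. The SD of probe A was 2.12 at day 3 and 2.20 at day 8, where the median SD of all tested probes was 0.45 and 0.29. It exceeded the SD of 99.7% of the tested probes at day 3 and of 99.9% at day 8. At ovulation, where it was 0.23, it exceeded only 12.9%. Probe B exceeded 99.8%, 99.9% and 45.4% at the same days. SERPINF1 spread less than the median probe on all 5 days, with SDs between 0.20 and 0.44.

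**Figure D2:**
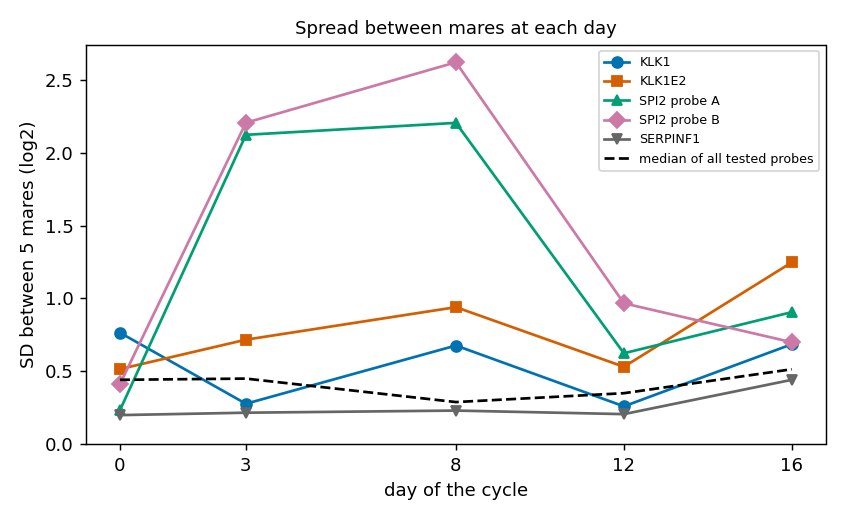
Standard deviation between the 5 mares (log2) at each day of the cycle for the 5 probes, with the median of all 35770 tested probes as a dashed line. Both probes of SPI2 stand above 2 at days 3 and 8, and KLK1E2 reaches 1.25 at day 16.

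KLK1 encodes the tissue kallikrein that generates kinins, and its mean level was highest at ovulation and lowest at day 16. The highest day was day 0 in mares 1, 3 and 5, day 8 in mare 2 and day 3 in mare 4. The lowest was day 16 in mares 3, 4 and 5, day 3 in mare 1 and day 12 in mare 2. Before scaling the log2 day means were 7.62, 7.83, 7.77, 7.74 and 7.25 at days 0, 3, 8, 12 and 16. The peak at ovulation therefore holds relative to the other transcripts of the same array, not for the signal of KLK1 as such. In mares 1 to 5 the scaled level was at −1.88, −1.90, −2.13, −3.72 and −2.45 at day 0. There mare 4 lay below the others, and the mean was −2.42 ± 0.77 (SD, n = 5). On day 3 the values were −3.49, −2.86, −2.79, −3.002 and −2.93 (mean −3.01 ± 0.28).

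Mid luteal KLK1, at day 8, was at −3.06, −1.64, −2.75, −3.22 and −3.30 (mean −2.79 ± 0.68), where mare 2 stood above the rest. Late luteal values at day 12 were −3.14, −3.37, −3.09, −3.19 and −2.67 (mean −3.09 ± 0.26). At day 16 they were −3.46, −2.92, −4.02, −4.75 and −3.59 (mean −3.75 ± 0.69). All 25 values were well above background.

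Day 0 exceeded day 16 for KLK1 by 1.33 ± 0.35 (2.51-fold) in 5 of 5 mares, by 1.02 to 1.89 in a mare. The ranges of these days still overlapped, since mare 4 at day 0 was lower than mares 1, 2 and 5 at day 16. Taken slide by slide, on the 3 slides with arrays of both, the difference was 1.03, 1.13 and 1.04. Before scaling it was 0.37, with 3 of 5 mares higher at day 0. The steps between neighbouring day means were smaller than the pooled SD from day 0 to 8, 8 to 3 and 3 to 12. The last step, from day 12 to day 16, was larger (−0.65 ± 0.35, lower in 4 of 5 mares).

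KLK1E2 encodes a second horse kallikrein, for which the RefSeq table lists the synonym hpk, and it was the dimmest member. Its probe was well above background on 5, 5, 4, 4 and 3 of 5 arrays at days 0, 3, 8, 12 and 16, with a mean signal of 23.9. The arrays that did not measure it were those of mare 5 at days 8, 12 and 16 and of mare 4 at day 16. At day 0 its level was −5.26, −4.89, −5.26, −6.18 and −4.96 in mares 1 to 5 (mean −5.31 ± 0.52). It was −6.43, −5.28, −5.58, −4.82 and −6.45 at day 3 (mean −5.71 ± 0.72).

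On day 8 KLK1E2 was at −6.91, −5.47, −5.24, −7.25 and −7.00 (mean −6.38 ± 0.94). On day 12 the values were −6.85, −6.60, −6.08, −6.80 and −7.55 (mean −6.77 ± 0.53). Day 16 gave −5.99, −7.29, −6.23, −8.99 and −8.01 (mean −7.30 ± 1.25). The day means thus descended in the order of the days. Each step was smaller than the pooled SD of its days, however, and neighbouring days overlapped. Before scaling the log2 mean of day 3 (5.13) was above that of day 0 (4.72).

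**Figure D3:**
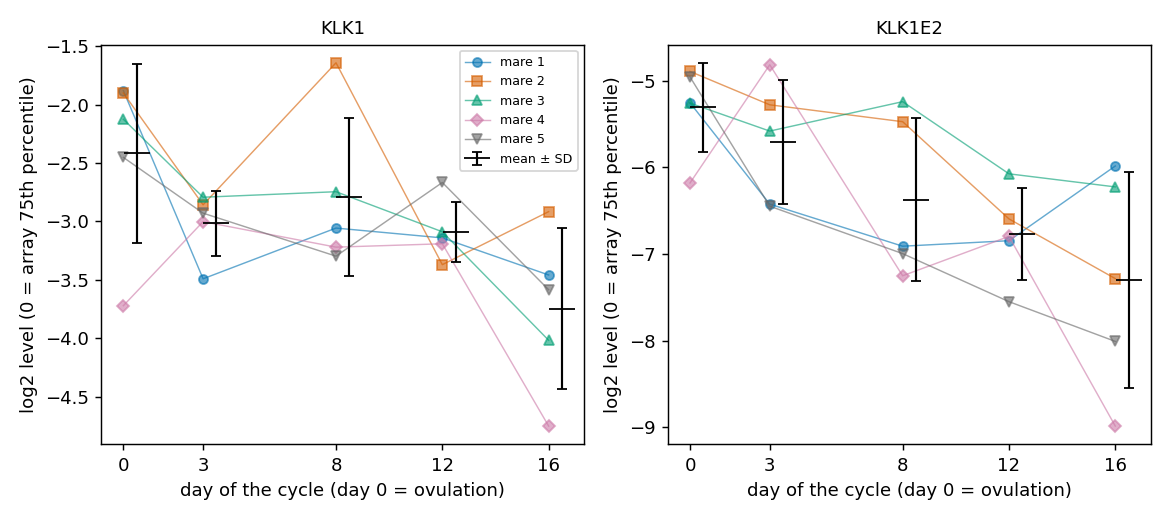
Level of KLK1 (left) and KLK1E2 (right) by day of the cycle, as log2 relative to the 75th percentile of the array, each panel with its own axis. Coloured points joined by lines are the 5 mares and black bars the mean ± SD, which run from −2.42 at day 0 to −3.75 at day 16 for KLK1 and from −5.31 to −7.30 for KLK1E2.

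From day 16 to day 0 KLK1E2 differed by 1.99 ± 0.50, higher at day 0 in 5 of 5 mares. At day 16 mares 4 and 5 were not well above background, so the size of the difference is uncertain and no fold is given. In mares 1, 2 and 3, measured on both days, it lay between 0.73 and 2.39. The difference was 2.81, 3.05 and 2.03 on the 3 slides with arrays of both, of which the first and second rest on mares 4 and 5 at day 16. It was 1.03 before scaling, in 4 of 5 mares. Day 12 was lower than day 0 by −1.46 ± 0.50 in 5 of 5 mares, and before scaling by −0.67 in 4 of 5. At day 3 mare 4 had its highest level and mares 1 and 5 were the lowest of that day, the reverse of SPI2, for which mares 1 and 5 were the highest.

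KLK1 and KLK1E2 are close neighbours in the genome: in the RefSeq annotation of the assembly TB-T2T only KLK15 lies between them. As related genes they can share sequence, and whether each probe reads its own transcript alone was not tested. At day 8 mare 2 was the highest for KLK1 at −1.64, and for KLK1E2 mares 2 and 3 were both high (−5.47 and −5.24). Mare 4 was the lowest of both genes at day 0 and at day 16.

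SERPINF1, the gene of the antiangiogenic serpin, was bright on all 25 arrays and varied least. At day 0 it was at 1.59, 1.34, 1.38, 1.05 and 1.21 in mares 1 to 5 (mean 1.31 ± 0.20, SD, n = 5). On day 3 the values were 1.003, 1.05, 1.01, 0.81 and 0.53 (mean 0.88 ± 0.22). The day 0 values were all above those of day 3, although the lowest of day 0 and the highest of day 3 both round to 1.05.

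Day 8 gave 1.11, 1.14, 1.22, 0.63 and 0.98 for SERPINF1 (mean 1.02 ± 0.23), and day 12 gave 0.89, 0.88, 0.45, 0.62 and 0.91 (mean 0.75 ± 0.21). On day 16 it was at 1.18, 0.69, 0.18, 0.50 and 0.07 (mean 0.53 ± 0.44). Mare 1 was the highest at day 16, and mares 3 and 5 were the lowest.

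The difference between days 0 and 16 was 0.79 ± 0.19 for SERPINF1 (1.73-fold), higher at day 0 in 5 of 5 mares. On the 3 slides with arrays of these days it was 0.55, 1.13 and 0.90. Before scaling it turned to −0.17, with 3 of 5 mares higher at day 0. Day 12 was lower than day 0 by −0.56 ± 0.19 in 5 of 5 mares, and before scaling it was higher by 0.23. The direction of SERPINF1 over the cycle therefore holds relative to the other transcripts of the same array, not for its signal as such.

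**Figure D4:**
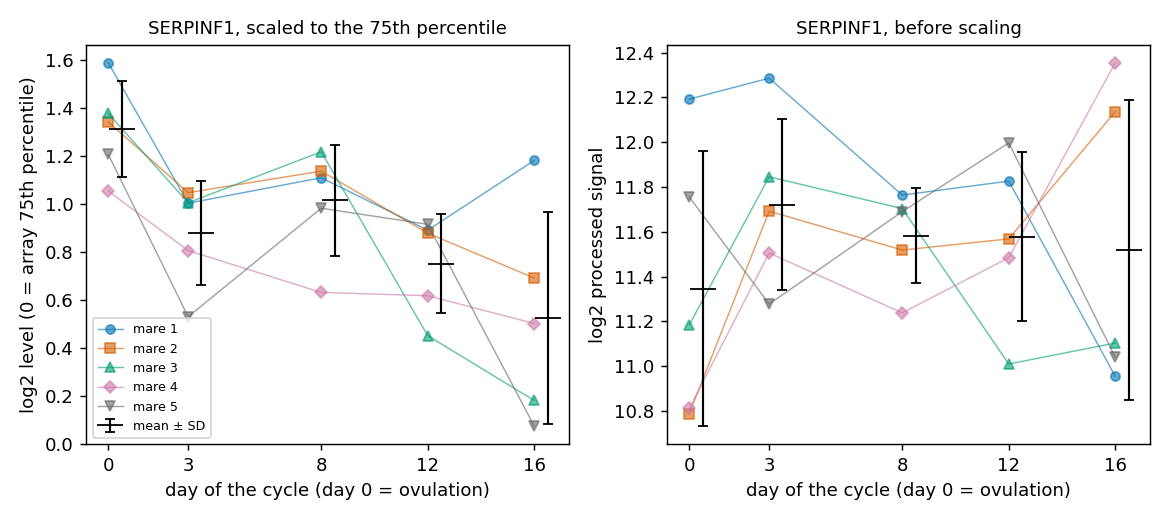
SERPINF1 by day of the cycle in the 5 mares (coloured points joined by lines) with the mean ± SD in black. On the left, relative to the 75th percentile of the array, the means run from 1.31 at day 0 to 0.53 at day 16, and on the right, as log2 processed signal before scaling, from 11.35 to 11.52.

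The scaled levels of KLK1, KLK1E2 and SERPINF1 tended to be lower on arrays with a higher signal level. Over the 25 arrays the Pearson r between a member and the log2 of the 75th percentile was −0.48 for KLK1, −0.65 for KLK1E2 and −0.54 for SERPINF1. For SPI2 it was −0.01 (probe A) and 0.00 (probe B). Before scaling r was 0.32 for KLK1, −0.18 for KLK1E2, 0.74 for SERPINF1, and 0.22 and 0.21 for probes A and B of SPI2. The arrays share mares and days, and the 75th percentile itself is subtracted in the level, so these values are a description. With that percentile added to the model as a covariate, an alternative chosen after seeing the data, the difference of day 0 against day 16 was 1.09 for KLK1, 0.98 for KLK1E2 and 0.68 for SERPINF1. Its part in these differences was not tested further.

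**Figure D5:**
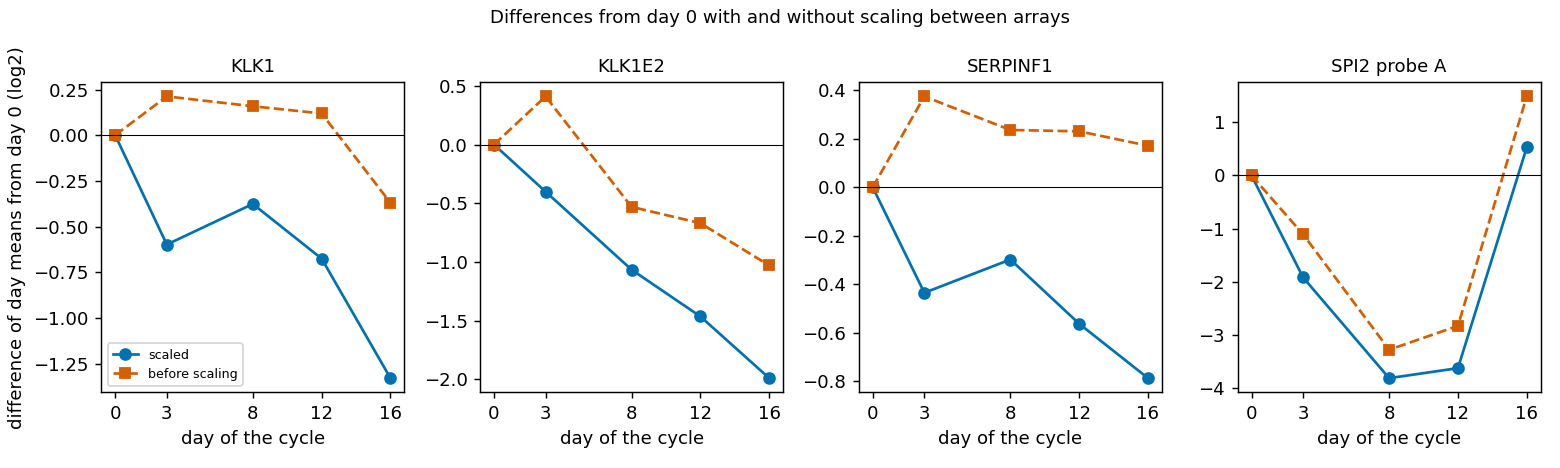
Difference of each day mean from day 0 (log2) for KLK1, KLK1E2, SERPINF1 and SPI2 probe A, relative to the 75th percentile of the array (blue, solid) and before scaling (orange, dashed), each panel with its own axis. Scaling turns SERPINF1 from above to below its day 0 value at the later days, while both lines of SPI2 dip at days 8 and 12.

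In limma's fit over all probes, all 5 member probes differed between the 5 days, against 35.8% of the 35770 tested probes (Benjamini-Hochberg adjusted p under 0.05). For day 16 against day 12 the 2 probes of SPI2 passed, against 8.07% of all probes. For day 0 against day 16 the probes of KLK1, KLK1E2 and SERPINF1 passed, against 4.71%. With the slide as a block KLK1 no longer passed (1.09 ± 0.35), and with mare and slide together none of the 3 did. The SPI2 probes passed again in day 8 against day 0 (21.9% of all probes), day 12 against day 0 (17.9%) and day 16 against day 8 (15.0%). KLK1E2 and SERPINF1 also passed in day 12 against day 0, and KLK1E2 in day 16 against day 3 (13.8%). With mare and slide together limma kept 5 of these 14 calls of members, so some calls of SPI2 were lost too. In day 3 against day 0 and day 8 against day 3 limma called 0 of 5, where 2 of 5 had an unadjusted p under 0.05 and 12.7% and 13.8% of all probes were called. It called 0 of 5 also in day 12 against day 8 (0 unadjusted, 1.10% of all probes) and in day 12 against day 3 (2 unadjusted, 17.9%). Since the genes were picked on these contrasts, nothing is read from the counts.

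Genes with a named and tested probe whose pattern over the 25 arrays was most like that of a member were found among 513 others by Pearson correlation. For SPI2 (probe A) they included TES (r = 0.84), PLA2G4A, a phospholipase that releases arachidonic acid (0.78), RND3 (0.76) and USP32 (0.75). After the day means were removed TES was at 0.55 and PLA2G4A at 0.25. The 5 closest to KLK1E2 were NLGN3 (0.73), SLC16A1, a lactate carrier (0.71), FMOD, a collagen-binding proteoglycan (0.70), HSP90AB1 (0.68) and KLK1 (0.67).

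The gene most like KLK1 was KLK1E2 (r = 0.67, and 0.52 after the day means were removed), followed by SERPINF1 (0.66), RPL5 (0.64), GCNT1 (0.61) and RNF208 (0.60). For SERPINF1 they were RAVER1 (0.76), CXCL9, a chemokine induced by interferon (0.72), SUZ12 (0.71), LILRA, a leukocyte receptor (0.70), and CD68, a macrophage marker (0.69). SPI2 had an r between −0.16 and 0.06 with the other 3 members. All these arrays share the same 5 mares and the same scaling, and the values are a description of likeness only.

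Markers of cell types moved over the same days. For stromal fibroblasts 2 of 7 markers had a named probe, LUM and DCN, and their summed level (log2) ranged from 4.90 to 5.48 at day 0, from 3.11 to 4.65 at day 3 and from 3.56 to 4.01 at day 8. At day 12 it ranged from 3.66 to 4.32 and at day 16 from 4.18 to 5.20. Its median was higher at days 0 and 16 than at days 8 and 12, as for SPI2, but at day 3 the mares with the lowest sum, 1 and 5, had the highest SPI2. For leukocytes 2 of 6 markers were measured, CD14 and CD68, summing to 0.11 to 1.08 at day 0, 0.13 to 0.57 at day 3, −0.15 to 0.31 at day 8, 0.81 to 1.61 at day 12 and 0.60 to 2.36 at day 16. These markers parted: between days 0 and 16 the mean of CD14 went from 0.52 to 1.06 and that of CD68 from −2.21 to −3.25. The 1 of 7 epithelial markers, ESRP1, was at 2.55 to 3.66 at day 0 and 2.66 to 3.35 at day 16. TAGLN, 1 of 4 markers of smooth muscle, was at −1.88 to −1.06 at day 0, −2.92 to −1.42 at day 8 and −1.13 to 0.25 at day 16. PECAM1, 1 of 4 endothelial markers, was at 0.08 to 0.95 at day 0 and 0.30 to 0.79 at day 16, and HBA2, 1 of 4 of red blood cells, at −2.53 to −1.83 and −3.20 to −2.49. DYDC1, 1 of 3 markers of ciliated cells, was at −7.05 to −5.26 at day 0 and −7.02 to −6.26 at day 16. P19 and ESR1, 2 of 4 genes listed for glands, summed to 7.05 to 7.63 at day 0 and 7.08 to 8.31 at day 16, with 7.99 to 8.29 at day 8. Their means ran in opposite directions, P19 from 3.65 at day 0 to 7.74 at day 8 and ESR1 from 7.12 to 6.05. The sum is therefore no measure of the share of glands. DYDC1 was well above background on 3 or 4 of 5 arrays of each day and the other markers on 5 of 5. The part of these markers in the levels of the members was not tested.

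Other genes of the same system were taken from lists of 159 genes: kallikreins, the kinin system, serpins, other inhibitors, serine proteases and their receptors. Only 4 of them had a named probe: the serpins SERPINB1 and SERPINB10 (2 of 34) and the proteases GZMB and TPSB2 (2 of 61). No other kallikrein (0 of 15), gene of the kinin system (0 of 10), non-serpin inhibitor (0 of 29) or receptor (0 of 10) was named. In limma's F test over the 5 days 0 of 4 passed, where 2 of 4 had an unadjusted p under 0.05 and 35.8% of all probes were called. With the mare as a block, which uses that the same animals were sampled on each day, 2 of 4 passed: TPSB2 (adjusted p = 0.000304 in limma) and GZMB (adjusted p = 0.00039).

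TPSB2, a tryptase of mast cells, had large and lasting differences between mares. Its mean levels at days 0, 3, 8, 12 and 16 were −2.77 ± 1.05, −1.96 ± 1.35, −1.29 ± 1.37, −0.75 ± 1.51 and −2.65 ± 1.81 (SD, n = 5). In the limma fit without the block its difference of day 16 against day 12 was −1.90 ± 0.85 (adjusted p = 0.200), and with the mare as a block −1.90 ± 0.34 (adjusted p = 0.000976). It was lower at day 16 than at day 12 in 5 of 5 mares. Day 8 against day 0 gave 1.47 (adjusted p = 0.240, and 0.00321 with the block, both in limma).

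GZMB, the granzyme with which killer lymphocytes trigger death of target cells, was at 2.30 ± 0.88, 1.80 ± 0.60, 2.45 ± 0.81, 3.38 ± 1.01 and 2.97 ± 0.71 at days 0, 3, 8, 12 and 16. From day 8 to day 12 it differed by 0.94 (limma adjusted p = 0.361, and 0.0477 with the mare as a block). SERPINB1, an inhibitor of neutrophil proteases inside cells, was at 2.41 ± 0.31, 2.53 ± 0.33, 2.25 ± 0.41, 1.76 ± 0.54 and 2.16 ± 0.18. In day 12 against day 3, a comparison of these genes added after the data were seen, GZMB rose by 1.58 ± 0.49 and SERPINB1 fell by 0.77 ± 0.24 (limma adjusted p = 0.0264 and 0.0251), among 17.9% of all probes. It lost both calls without the day 3 array of mare 4, without mare 1 or without mare 5, and kept 1 of 2 without the day 3 array of mare 5, the day 12 array of mare 2, 4 or 5, or mare 2, 3 or 4. With the slide as a block, or mare and slide together, SERPINB1 was not called and GZMB and TPSB2 were (TPSB2 adjusted p = 0.0166 and 0.0123 in limma), and the mare block called all 3 (TPSB2 adjusted p = 0.0133). SERPINB10 lay between −4.83 and −4.42 in its day means, with an F test adjusted p of 0.837 in limma.

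Over the 6 planned comparisons limma without a block called 0 of 24 differences of these 4 genes, where 2 of 24 had an unadjusted p under 0.05. With the mare as a block it called GZMB in day 12 against day 8. That block also called TPSB2 in day 16 against day 12 and in day 8 against day 0. For day 16 against day 12 the median of the 4 genes was −0.25 and that of all probes −0.07. For day 8 against day 0 they were −0.01 and −0.03. In day 3 against day 0 the medians were −0.14 and −0.11, and in day 0 against day 16 they were −0.01 and 0.07. Day 8 against day 3 gave 0.41 and 0.08, and day 12 against day 8 gave 0.37 and 0.06. With 4 genes measured of 159 these values do not describe the system as a whole.

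In the RefSeq annotation SPI2 lies among other serpin genes, with SERPINA6 and SERPINA10 on one side and SERPINA11, SERPINA14, SERPINA9, SERPINA12 and SERPINA5 on the other. SERPINF1 lies next to SERPINF2. None of these neighbours had a probe named through a RefSeq accession, so whether the neighbours follow SPI2 is not analysed here.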

How the data were processed

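Messenger RNA of 25 biopsies was measured on one-colour arrays. The authors deposited intensities. Background subtraction and spatial detrending were done in Agilent Feature Extraction 10.7.3.1, per the file headers and the submitters' processing notes, and no scaling between arrays is recorded. The deposited table equalled the processed signal on all 25 arrays. The 0 or 1 marks of the software (other values) came with the deposited files.

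From these, log2 values minus the array's 75th percentile were computed, spots marked as outliers were left out and spots of a probe averaged. This scaling assumes that the 75th percentile does not change with the day. Probes entered the tests when 4 or more of the 5 arrays of any day had them well above background (35770 of 43603). Differences and moderated standard errors came from limma 3.58.1 in R 4.3.3, with 1 model of all 25 arrays and the day as its term, two-sided, Benjamini-Hochberg within each comparison, and adjusted p under 0.05 as a call. The fit was tested on simulated data. Tables used pandas 2.3.3 and numpy 2.4.6 under Python 3.11.15.

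Names came from RefSeq accessions on the assembly TB-T2T: 1307 probes of 620 genes had a symbol, of which 538 genes were tested. The arrays predate the assembly, so no positions are given. Named are the 4 members, genes of the lists that passed a test (SERPINB10, named after its values were seen, as the remaining one of 4), and the 5 genes most like each member, of which 1 for SPI2 is not reported here. A gene with several probes was represented by the brightest. The members and lists were chosen with earlier results of these data known. By the labels, arrays sharing a number come from 1 mare: after removing day means, the median r was 0.25 for pairs from 1 mare, 0.12 where these lay on different slides, and −0.05 for different mares. Alternatives were quantile normalization, normexp background correction (offset 50) on the median signals, as deposited or with marked backgrounds replaced, other filters on dim probes, blocks for mare, for slide or for both, the mean of SPI2's probes, fits of only the 2 days compared, and leaving out each array or mare. Added after seeing the data were no scaling and the array's signal level as a covariate.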

Additional observations from a re-analysis of the deposited data

Results flagged for a closer look

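Of 45 groups of 5 mares tested for a sample far from the others, 3 were flagged, and chance flags about 1 in 20 groups. KLK1E2 at day 0 was lowest in mare 4 at −6.18, with the next mare at −5.26. SERPINB1 at day 12 was lowest in mare 4 at 0.84, with the next at 1.78. GZMB at day 16 was highest in mare 5 at 4.22, with the next at 2.79.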

How the results depend on the processing

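Of 50 differences (5 probes in 10 comparisons), quantile normalization, other filters, only the 2 days compared, and mare, slide or both as blocks moved none by more than the SD between mares, nor did the mean of the SPI2 probes for the 10 values it gave. As the genes were picked on these contrasts, counts of calls kept describe only the dependence on processing and are no support for a difference. SPI2's 8 called differences, the same comparisons read by both probes of 1 transcript, passed in 30 of 30 omissions of an array or mare. Those of day 0 against day 16 passed in 20 (KLK1), 22 (KLK1E2) and 27 (SERPINF1) of 30, and those of day 12 against day 0 in 16 (KLK1E2) and 19 (SERPINF1). KLK1E2 in day 16 against day 3 passed in 21 and ran from −2.09 to −0.94. The mare block kept 14 of 14 calls of members, slide 13 (not KLK1 in day 0 against 16), only the 2 days 10, mare and slide together 5, the planned normexp 4 and no scaling 8. Mare and slide together, and the planned normexp, thus also lost some of SPI2's 8 calls.

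With no scaling SERPINF1 reversed to −0.17 (day 0 against 16) and 0.23 (12 against 0), and was at 0.38 (3 against 0), 0.24 (8 against 0) and −0.065 (16 against 8). KLK1 was at 0.21 (3 against 0), 0.37 (0 against 16) and 0.12 (12 against 0), and KLK1E2 at 0.41, 1.03 and −0.67. By construction this leaves the array's signal level in. With that level as a covariate KLK1E2 was at 0.45, 0.98 and −0.63 in these comparisons. The planned normexp, where local backgrounds reached 772899 on the day 8 array of mare 2 against 251 elsewhere, gave 0.68 (8 against 3), 0.088 (8 against 0) and −0.67 (16 against 3) for KLK1E2. It gave −0.44 (8 against 3), −1.95 (8 against 0) and 2.40 (16 against 8) for probe A of SPI2 and −0.42, −1.97 and 2.36 for probe B, which was at −1.08 in day 12 against day 8. With marked backgrounds replaced KLK1E2 was at −0.61 (16 against 3) and probe B at −2.83 (8 against 0) and 3.21 (16 against 8). The cause was not tested.

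Of the 4 other genes, the replicate block (mare), slide and both each called 2 over the 5 days and 1 in day 16 against 12 and in day 8 against 0. The mare block also called 1 in day 12 against 8, and slide 1 in day 0 against 16. No scaling called 1 over the 5 days, 1 in day 0 against 16 and 0 in day 12 against 3, where normexp called 0, the 2 days alone 1 (GZMB), the mare block 3, and slide with or without mare 2 (GZMB and TPSB2, not SERPINB1). Omissions gave 0 to 1 over the 5 days and 0 to 2 in day 12 against 3 (0 without mare 1 or mare 5, or the day 3 array of mare 4). KLK1E2 was limited by its signal near background.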

Other observations

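At day 3 the mares with high SPI2 were also those with high uterocalin: P19 was at 6.64 and 7.02 in mares 1 and 5 and at 5.14, 4.89 and 4.03 in mares 2, 3 and 4. ESR1 on the same arrays was at 5.86 and 6.54 in mares 1 and 5 and at 7.05, 7.04 and 6.87 in the others. P19 was highest at days 8 and 12 (7.74 ± 0.17 and 7.49 ± 0.27, SD, n = 5), the days on which SPI2 was lowest, while day 16, with the highest SPI2, had more P19 (6.35 ± 1.18) than days 3 and 0. The day 3 arrays of mares 1 and 5 also had the lowest LUM, DCN and PECAM1 and the highest TAGLN and HBA2 of that day. Their ESRP1, CD14, CD68 and DYDC1 overlapped with the other mares. At day 8 mare 3, which had the highest SPI2 level of that day, had a P19 level of 7.72, within the range of the other mares. These values were chosen after they had been seen, and no test was run.

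VEGFA, the growth factor of blood vessels that SERPINF1 is known to oppose, was among the named genes least like 3 of the members. Of 513 genes it had the lowest Pearson r with KLK1 (−0.68), the third lowest with KLK1E2 (−0.66) and the fourth lowest with SERPINF1 (−0.60) over the 25 arrays. With the day means removed these were −0.52, −0.25 and −0.18. VEGFA stood at −5.42 ± 0.46, −4.77 ± 0.58, −4.14 ± 0.23, −3.85 ± 0.45 and −3.35 ± 0.98 at days 0, 3, 8, 12 and 16 (SD, n = 5), dim on the day 0 arrays, where 4 of 5 measured it. The gene was singled out after its values were seen, the arrays share mares and scaling, and nothing is concluded from the likeness.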
